A study of Mus musculus with 18 samples.

Results

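The p53 target genes described here are 10 of the 33440 genes in the data: Mdm2, Cdkn1a, Ccng1, Gtse1, Bax, Trp53inp1, Phlda3, Eda2r, Zmat3 and Ptchd4. They were selected from a larger set of known p53 targets on the values measured in these libraries, namely their levels in WT and their differences in FI3OE and in FI3KO adipocytes. For FI3KO the selection also used the differences within subsets of the replicates. Their differences in those comparisons are therefore given as a description, without p-values, and counts of calls among them describe that choice and are not evidence. Adjusted p-values are given for other genes of the pathway. All 10 passed the filter on low counts in both comparisons, and the smallest estimated number of reads behind any of their values was 69 (Gtse1 in an FI3KO library). In GRCm38 the genes span Mdm2 chr10:117688875-117710758 (minus strand), Cdkn1a chr17:29090976-29100727 (plus strand), Ccng1 chr11:40748552-40755311 (minus strand), Gtse1 chr15:85859745-85876573 (plus strand), Bax chr7:45461697-45466898 (minus strand), Trp53inp1 chr4:11156431-11174379 (plus strand), Phlda3 chr1:135766119-135769136 (plus strand), Eda2r chrX:97333840-97377216 (minus strand), Zmat3 chr3:32334792-32366014 (minus strand) and Ptchd4 chr17:42315947-42505077 (plus strand). Cdkn1a overlaps an annotated antisense gene, and the libraries carry no strand information, so reads of that gene cannot be told apart from its own where they overlap.

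RNA was sequenced from 18 libraries of C57BL/6 mouse adipocytes in 2 experiments on the transcription factor IRF3. In the first, stromal-vascular fraction (SVF) cells of the inguinal fat of mice carrying an inducible IRF3-2D allele ("IRF-2D" in the labels) were differentiated into adipocytes and transduced with AAV-GFP-Cre (FI3OE, 3 libraries) or AAV-GFP (WT, 3 libraries). IRF3-2D is a constitutively active mutant. Both groups carry the allele, and only FI3OE received Cre, so expression of IRF3-2D and exposure to Cre cannot be told apart. The methods of the study describe donors of these cells as aged 4 to 6 weeks. In the second experiment, translating ribosome affinity purification (TRAP) was performed on epididymal fat (eWAT) of FI3KO-Ad-NuTRAP mice (FI3KO, 6 libraries) and Ad-NuTRAP mice (WT, 6 libraries) after 8 weeks of high-fat diet (HFD) at thermoneutrality. TRAP pulls down a GFP-tagged ribosomal protein that is produced in adipocytes through Adipoq-Cre, which both TRAP groups carry, and the same Cre deletes the floxed Irf3 alleles in FI3KO. The methods describe male mice placed on HFD at 8 weeks of age for a longer diet, and do not state age and sex for the TRAP mice separately. The labels call each sample a biological replicate, but do not say which came from separate cultures or litters.

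The tumour suppressor p53 is a transcription factor that is kept at low levels by the ubiquitin ligase MDM2 and accumulates when DNA damage, oncogene activity or metabolic stress interrupts that control. It binds DNA as a tetramer on pairs of decameric half-sites and activates genes for cell cycle arrest, apoptosis, DNA repair and its own negative feedback. In adipose tissue of obese mice, p53 activity has been linked to senescence and insulin resistance. IRF3, a mediator of innate immune signalling, binds a different element, the interferon-stimulated response element (ISRE).

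Library totals ran from 21541334 to 36932452 reads in the SVF experiment and from 25259869 to 40490283 reads in the TRAP experiment, and levels are given as CPM, the count of a gene scaled to that total. Irf3 lay between 90.8 and 100.3 CPM in FI3OE libraries, against 56.8 to 58.6 CPM in the WT libraries. In TRAP it lay between 12.4 and 18.8 CPM in FI3KO, against 17.2 to 23.2 CPM in WT, so that these ranges overlapped at the level of the whole gene. Scaled by transcript length (TPM), Irf3 was at 55.0 to 93.5 TPM in FI3KO and 37.8 to 47.3 TPM in WT, which is higher in FI3KO without overlap. The gene totals therefore do not check the TRAP labels, and FI3KO stands below for the libraries labelled as knockout. Adipocyte markers summed to 14660 to 16740 CPM in the SVF-derived cells and to 50240 to 65850 CPM in TRAP. Markers of fibroblasts and preadipocytes, led by Col1a1, summed to 8788 to 9468 CPM in the SVF-derived cells, where expression in adipocytes and in other cells cannot be told apart. In bulk RNA, fewer cells of a type and less RNA per cell cannot be told apart. TRAP replicates 1 and 2 stood apart from replicates 3 to 6 in marker sums and in several of the genes below. TRAP log2 fold changes of the p53 target genes, Eda and Cdkn2a are given for both sets. For other named genes those of replicates 1 and 2 only are given. WT TRAP replicates 1 and 2 were also closer to each other than other pairs of that group (chi-square per degree of freedom 2.57, against 8.97 to 142). They differed by more than sampling noise, but this cannot tell separate mice from separate preparations of the same mouse. They were counted as separate samples because the labels call each a biological replicate.

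The bases around the annotated starts of these genes were searched for the p53 half-site, because these data hold no measurement of p53 binding. The half-site was 3 purines, then C, then 2 bases that are each A or T, then G and 3 pyrimidines, and matches were sought on both strands in RefSeq windows of 250 bases before to 50 bases after a start (GRCm38.p6). Windows were found for 8 of the 10 genes, 11 windows in all. No window was found for Trp53inp1 and Zmat3. Of the 11 windows, 5 held a half-site, and these belonged to 5 genes, while 8.36% of 32851 mouse windows held one. A pair of half-sites no more than 13 bases apart, which overlap the first search by construction, were found in 1 of the 11 windows and in 0.0731% of all windows. That window was the one at the upstream start of Cdkn1a, whose 100 bases before the start (chr17:29090879-29090978, plus strand) are shown first, followed by 30 bases around each of the other half-sites. These were Ccng1 (chr11:40755452-40755481, minus strand), Mdm2 (chr10:117710925-117710954, minus strand), Bax (chr7:45467080-45467109, minus strand) and Gtse1 (chr15:85859945-85859974, plus strand). Capitals mark the half-sites. The search allowed no mismatch. In Cdkn1a the bases directly after the second half-site (tgacatgttc) miss the pattern at 1 base and are not marked.
Cdkn1a: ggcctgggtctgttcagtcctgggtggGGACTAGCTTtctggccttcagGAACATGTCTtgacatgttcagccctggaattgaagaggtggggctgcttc
Ccng1: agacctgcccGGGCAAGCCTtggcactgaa
Mdm2: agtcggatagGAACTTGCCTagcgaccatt
Bax: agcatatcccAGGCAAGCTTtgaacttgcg
Gtse1: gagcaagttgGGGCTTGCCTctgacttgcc
The half-sites began 73 and 51 bases before the upstream Cdkn1a start, 185 before that of Ccng1, 186 before that of Mdm2 and 201 before that of Bax. In Gtse1 the match began at base 10 after the more downstream of its starts. The letters GAAA followed by any 2 bases and GAAA again, a core of the ISRE, were in none of the 11 windows on either strand and in 3.44% of all windows. A match of letters is not a measured binding site, and a window without them says nothing about sites elsewhere in the gene.

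Among the p53 target genes, 9 of 10 were called higher in FI3OE than in WT and none lower, at an adjusted p of at most 0.05 in edgeR's quasi-likelihood test. Over all 16105 genes tested, 20.2% were called higher and 16.8% lower. With a log2 fold change of at least 1 as well, 4 of the 10 (Cdkn1a, Gtse1, Phlda3 and Eda2r) were called higher, against 1.99% of all genes higher and 1.63% lower. Phlda3 and Eda2r were at the edge of that cutoff, with values down to 0.98 and 0.97 when single libraries were left out. The 3 FI3OE libraries lay above the 3 WT libraries in 9 of the 10 genes, while 24.1% of all genes tested showed no overlap in that direction and 25.7% in the other. The median log2 fold change of the 10 genes was 0.90, and that of all genes tested was -0.005. Since the genes were selected on this contrast, these counts describe the choice.

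**Figure D1:**
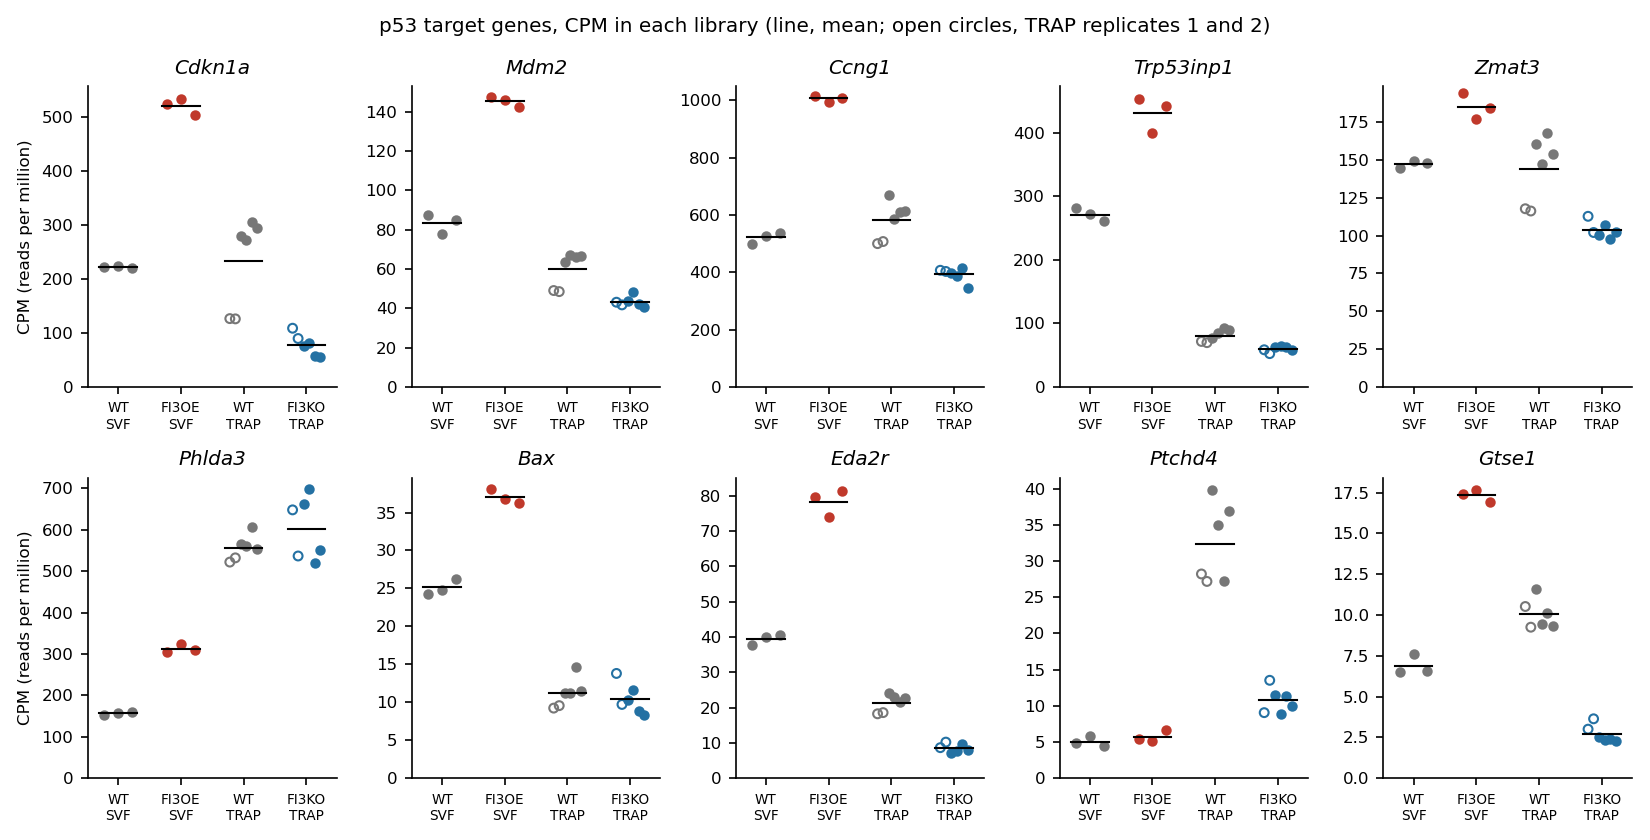
CPM (vertical axes, from 0) of each p53 target gene in every library, by group; points are libraries, lines are group means, and open circles are TRAP replicates 1 and 2. In FI3OE all genes but Ptchd4 lie above WT in each of the 3 libraries, and in FI3KO all but Phlda3 and Bax lie below every WT library.

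Cdkn1a encodes p21, an inhibitor of cyclin-dependent kinases and the main effector of cell cycle arrest by p53. It was measured at 523.5, 533 and 503 CPM in the FI3OE libraries and at 221, 223.5 and 219 CPM in WT. The log2 fold change was 1.25 (standard error 0.0367), or 2.38-fold. In the fit of all 18 libraries, which share one estimate of spread, the standard error was 0.30.

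Ccng1 encodes cyclin G1, an atypical cyclin that takes part in the feedback on MDM2. It was at 1017, 996 and 1009 CPM in FI3OE and at 499, 528 and 538 CPM in WT, a log2 fold change of 0.97 (standard error 0.0382). Gtse1, whose protein binds microtubules in dividing cells and moves p53 out of the nucleus, was at 17.4, 17.6 and 16.9 CPM in FI3OE and at 6.52, 7.61 and 6.57 CPM in WT. Its log2 fold change of 1.35 (standard error 0.0851) was the highest of the 10, at a level far below those of Cdkn1a and Ccng1.

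Mdm2, the ligase that degrades p53, was at 148, 146 and 142.5 CPM in FI3OE and at 87.4, 77.7 and 85.2 CPM in WT. The log2 fold change was 0.82 (standard error 0.0449). All 3 FI3OE libraries were above the highest WT library.

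Of the genes that act in cell death, Bax, whose product permeabilizes the mitochondrial outer membrane, was at 38.1, 36.8 and 36.2 CPM in FI3OE and at 24.2, 24.9 and 26.3 CPM in WT. Its log2 fold change was 0.57 (standard error 0.0516). Bax shares 192 exonic bases on the same strand with Gm45808, so reads of the 2 genes could be divided between them by the quantification. Their sum was 41.7 ± 1.11 CPM in FI3OE against 30.3 ± 0.311 CPM (SD, n = 3 per group). A gap of 459 kb separates Bax from Irf3 on chromosome 7.

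Trp53inp1 encodes a nuclear stress protein that promotes p53 activity and autophagy. It was at 454, 399 and 442 CPM in FI3OE and at 282, 271 and 261 CPM in WT, a log2 fold change of 0.69 (standard error 0.0475). Phlda3, a pleckstrin homology domain protein that inhibits AKT at the membrane, was at 306, 323 and 310 CPM in FI3OE and at 152, 158.5 and 159.5 CPM in WT, a log2 fold change of 1.02 (standard error 0.041). Both genes were above every WT library in each FI3OE library.

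Eda2r encodes the receptor for ectodysplasin A2 of the tumour necrosis factor family. It was at 79.5, 73.9 and 81.4 CPM in FI3OE and at 37.8, 40.1 and 40.6 CPM in WT, a log2 fold change of 1.00 (standard error 0.0492). Eda, the gene of its ligand, fell in FI3OE, with 6.94 ± 0.887 CPM against 9.002 ± 0.947 CPM (SD, n = 3 per group, log2 fold change -0.36, adjusted p = 0.033 in edgeR), and that adjusted p reached 0.124 over the alternative settings. Counts were summed per gene, and the Eda isoform that encodes ectodysplasin A2 was not examined apart from the others.

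Zmat3, a zinc finger protein that binds RNA and alters splicing, had the smallest difference among the 9 genes called. It was at 194, 177 and 184.5 CPM in FI3OE and at 144, 149 and 148 CPM in WT, a log2 fold change of 0.35 (standard error 0.0407). Ptchd4, a relative of the hedgehog receptor Patched, was at 5.45, 5.09 and 6.61 CPM in FI3OE and at 4.89, 5.80 and 4.41 CPM in WT. The ranges of Ptchd4 overlapped, its log2 fold change of 0.21 was close to its standard error of 0.143, and an offset for transcript length turned the value to -0.14.

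Other measurements moved with the same groups. Adipocyte markers summed to 14660 to 15000 CPM in FI3OE and 16420 to 16740 CPM in WT, with 4 of 15 higher and 8 lower. Fibroblast and preadipocyte markers summed to 8788 to 8852 CPM against 9155 to 9468 CPM, with 3 of 10 higher and 1 lower. Macrophage markers, led by Lyz2, summed to 1770 to 1798 CPM against 1899 to 2017 CPM, with 3 of 14 tested higher and 3 lower, near the 20.2% and 16.8% of all genes, and a median log2 fold change of 0.02. Transcripts of the mitochondrial genome took 1.01 to 1.16% of reads in FI3OE and 2.12 to 2.31% in WT. In the fit of all 18 libraries 2 of the 15 adipocyte markers were lower and the other 13 were not called, and neither were the 10 fibroblast and 15 macrophage markers. The part of these differences in the values of the p53 target genes was not tested.

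In the TRAP experiment the direction was the opposite one for most of the same genes. Of the 10, 8 were called lower in FI3KO and none higher, while 18.3% of all 13624 genes tested were called lower and 19.1% higher. With the fold-change cutoff, 4 were called lower (Gtse1, Ptchd4, Cdkn1a and Eda2r), against 4.87% of all genes lower and 1.74% higher. The 6 FI3KO libraries lay below the 6 WT libraries in 8 of the 10 genes, while 9.82% of all genes were without overlap in that direction and 5.39% in the other. The median log2 fold change of the 10 genes was -0.47, and that of all genes tested was 0.016. These counts too describe the choice of genes. The 2 experiments share no sample.

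Gtse1 had the largest difference of the 10. It ranged from 2.27 to 3.64 CPM in FI3KO (median 2.49, 6 libraries) and from 9.25 to 11.6 CPM in WT (median 9.79, 6 libraries). The log2 fold change was -1.84 (standard error 0.131), so that FI3KO was at 27.9% of WT. Both sets of replicates showed it, with log2 fold changes of -1.51 in replicates 1 and 2 and -2.03 in replicates 3 to 6.

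Ptchd4, which did not differ beyond its spread in the SVF-derived cells, ranged from 8.94 to 13.5 CPM in FI3KO (median 10.7) and from 27.2 to 39.8 CPM in WT (median 31.6), a log2 fold change of -1.54 (standard error 0.122). The highest FI3KO library was far below the lowest WT library. Replicates 1 and 2 gave a log2 fold change of -1.23, and replicates 3 to 6 one of -1.68.

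Cdkn1a ranged from 55.8 to 108 CPM in FI3KO (median 78.6) and from 126 to 305 CPM in WT (median 275.8), a log2 fold change of -1.52 (standard error 0.25). The groups did not overlap, but WT itself split in 2. WT replicates 1 and 2 were at 126 and 126 CPM and WT replicates 3 to 6 at 279, 272.5, 305 and 293 CPM, while FI3KO replicates 1 and 2 were at 108 and 89.4 CPM and FI3KO replicates 3 to 6 at 76.1, 81.2, 57.5 and 55.8 CPM. The log2 fold change was accordingly -0.29 in replicates 1 and 2 (81.8% of WT) and -2.05 in replicates 3 to 6 (24.1% of WT).

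Eda2r ranged from 7.14 to 10.2 CPM in FI3KO (median 8.30) and from 18.2 to 24.3 CPM in WT (median 22.2). Its log2 fold change was -1.27 (standard error 0.106), with -0.90 in replicates 1 and 2 and -1.44 in replicates 3 to 6. Eda was lower in FI3KO as well, at 11.8 ± 1.52 CPM against 15.9 ± 1.32 CPM (SD, n = 6 each; log2 fold change -0.39, adjusted p = 0.0043 in edgeR), with no overlap between the groups, with -0.51 in replicates 1 and 2 and -0.33 in replicates 3 to 6, and its adjusted p ranged from 0.000251 to 0.0935 over the alternative settings.

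The other 4 genes called had smaller differences. Ccng1 ranged from 345 to 416 CPM in FI3KO (median 399.8) and from 500.1 to 669 CPM in WT (median 599), a log2 fold change of -0.52 (standard error 0.0733). Mdm2 ranged from 40.9 to 48.2 CPM (median 42.5) against 48.5 to 66.9 CPM (median 64.8), a log2 fold change of -0.42 (standard error 0.0841). The highest FI3KO library of Mdm2 was just below the lowest WT library, and this gene was nearest to an overlap. Zmat3 ranged from 97.4 to 113 CPM (median 102) against 116 to 168 CPM (median 151), a log2 fold change of -0.42 (standard error 0.0875). Trp53inp1 ranged from 52.3 to 63.7 CPM (median 60.3) against 69.6 to 91.9 CPM (median 80.2), a log2 fold change of -0.39 (standard error 0.0719). These differences were smaller in replicates 1 and 2 than in replicates 3 to 6, with log2 fold changes of -0.25 and -0.64 for Ccng1, -0.14 and -0.55 for Mdm2, -0.06 and -0.58 for Zmat3 and -0.29 and -0.43 for Trp53inp1.

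Phlda3 and Bax were the exceptions. Phlda3 ranged from 520 to 699 CPM in FI3KO (median 599.5) and from 522 to 606 CPM in WT (median 558), a log2 fold change of 0.16 (standard error 0.078), with 0.23 in replicates 1 and 2 and 0.13 in replicates 3 to 6. Bax ranged from 8.30 to 13.8 CPM in FI3KO (median 10.0) and from 9.24 to 14.7 CPM in WT (median 11.2), a log2 fold change of -0.05 (standard error 0.14). Their groups overlapped, and the sign of the Bax value differed between replicates 1 and 2 (0.38) and replicates 3 to 6 (-0.27). Gm45808 was at 4.11 to 12.1 CPM in FI3KO and 5.68 to 13.3 CPM in WT, close to the level of Bax, and their sum was 19.0 ± 1.48 CPM in FI3KO against 21.4 ± 1.94 CPM (SD, n = 6 per group).

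**Figure D2:**
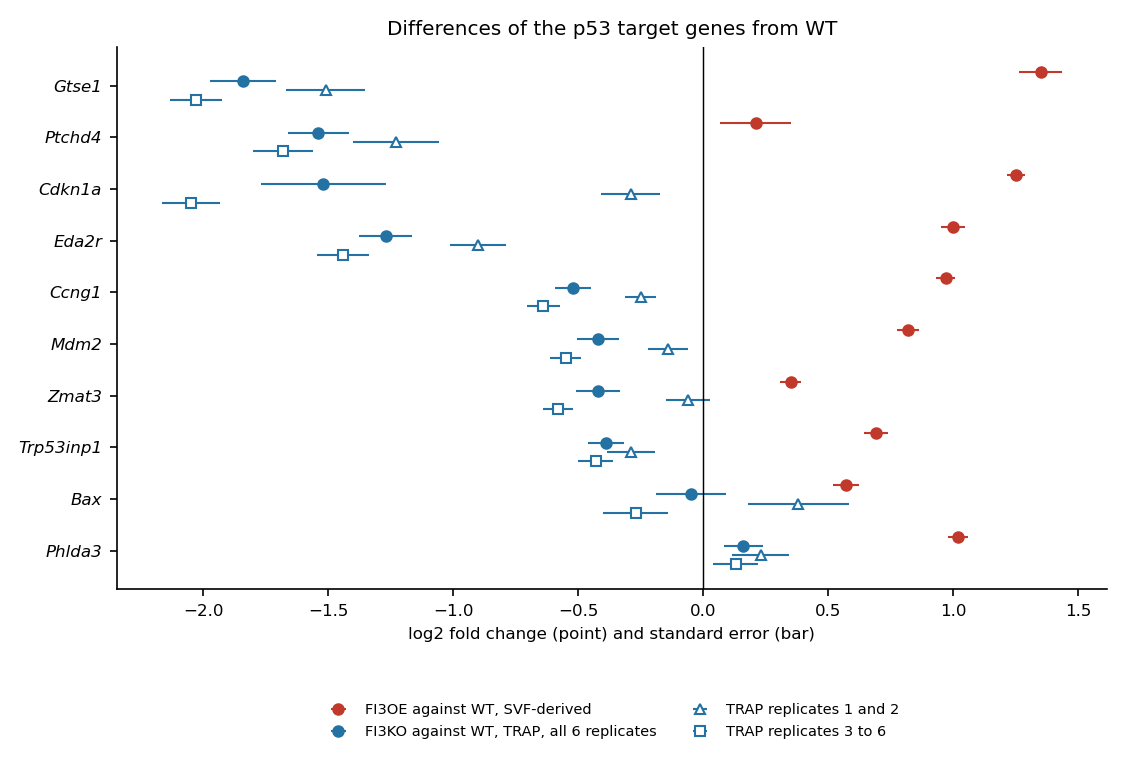
Log2 fold change of each p53 target gene (points) with its standard error (bars) in FI3OE against WT SVF-derived adipocytes, in FI3KO against WT TRAP, and in TRAP replicates 1 and 2 or 3 to 6 alone. All genes but Phlda3 and Bax lie below 0 in both TRAP sets, and Cdkn1a moves from -0.29 in replicates 1 and 2 to -2.05 in replicates 3 to 6.

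The 2 sets of TRAP replicates differed for most of these genes. In replicates 1 and 2 alone, 3 of the 10 (Gtse1, Ptchd4 and Eda2r) were called lower, while 1.98% of all genes tested were. In replicates 3 to 6 alone 8 of the 10 were called lower, and so were 24.8% of all genes. The values of both sets were part of the selection, so these counts describe the choice of genes and are not evidence. In WT, replicates 1 and 2 were below all of replicates 3 to 6 in 8 of the 10 genes, by a ratio of means from 0.438 (Cdkn1a) to 0.922 (Phlda3), and overlapped them for Ptchd4 and Gtse1. Over all genes tested, 29.0% were below in this way and 19.9% above. In FI3KO the sets overlapped in 7 of the 10 genes, with Cdkn1a and Gtse1 higher and Trp53inp1 lower in replicates 1 and 2, while 15.1% of all genes tested were higher and 24.7% lower.

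Marker sums of several cell types also differed between the sets. Fibroblast and preadipocyte markers summed to 523 to 585 CPM in FI3KO and 581 to 588 CPM in WT in replicates 1 and 2, but to 216 to 342 CPM and 1068 to 1562 CPM in replicates 3 to 6. Most of these sums came from Col1a1, which averaged 271 CPM in FI3KO and 1005 CPM in WT over all replicates. Macrophage markers summed to 42.1 to 55.1 CPM and 52.0 CPM in replicates 1 and 2, and to 18.4 to 22.5 CPM and 84.9 to 119 CPM in replicates 3 to 6. Over all replicates, 10 of the 13 macrophage markers tested were lower in FI3KO and 1 higher, as were 4 lower and 1 higher of 9 fibroblast and preadipocyte markers. Of all genes tested, 18.3% were lower and 19.1% higher. In replicates 1 and 2 alone 1 of 13 macrophage markers was lower and 1 of 10 fibroblast markers higher. Of all 14040 genes tested in that set, 278 were lower and 222 higher. Endothelial markers summed to 94.9 to 169 CPM in FI3KO and 55.4 to 64.2 CPM in WT in replicates 1 and 2, where 3 of 10 were higher and the median log2 fold change was 1.11, and to 36.4 to 56.5 CPM and 43.9 to 80.7 CPM in replicates 3 to 6. Mesothelial markers summed to 4.24 to 19.2 CPM and 5.10 to 37.5 CPM over all replicates, and their sets overlapped in both groups. Epididymal epithelial markers were near 0, with 8 of 12 at 3 reads or fewer in every FI3KO library and 11 of 12 in every WT library. Their sums were 1.58 to 1.66 CPM in FI3KO replicates 1 and 2, 0.0619 to 0.173 CPM in FI3KO replicates 3 to 6 and 0.155 to 0.299 CPM in WT. Adipocyte markers summed to 50240 to 55960 CPM in FI3KO and 65410 to 65850 CPM in WT in replicates 1 and 2, and to 61420 to 64480 CPM and 52110 to 62510 CPM in replicates 3 to 6. The part of RNA from other cells in the values of the p53 target genes was not tested.

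**Figure D3:**
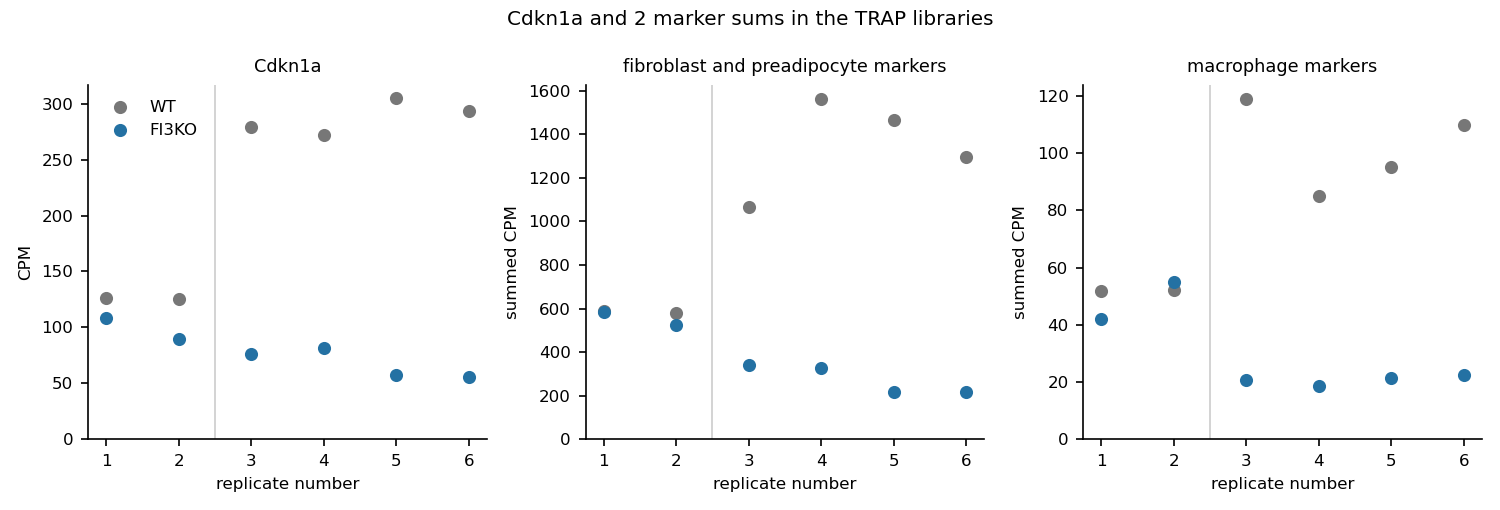
CPM of Cdkn1a and summed CPM of fibroblast and preadipocyte markers and of macrophage markers (vertical axes, from 0) in each TRAP library, by replicate number (the numbers do not pair mice), for WT (grey) and FI3KO (blue). The grey line divides replicates 1 and 2, in which WT Cdkn1a is at 126 CPM, from replicates 3 to 6, in which it is at 272.5 to 305 CPM. Most of the fibroblast and preadipocyte sum is Col1a1.

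Levels between genes were compared per length, as TPM, the read share of a transcript per unit of its length, summed over each gene. In WT SVF-derived adipocytes the order was Phlda3 (353 ± 12.96 TPM, SD, n = 3), Cdkn1a (335 ± 15.3), Ccng1 (237 ± 9.60), Bax (93.5 ± 4.18), Trp53inp1 (90.0 ± 2.89), Mdm2 (73.7 ± 5.48), Zmat3 (39.4 ± 1.37), Eda2r (16.9 ± 0.457), Gtse1 (6.39 ± 0.491) and Ptchd4 (3.00 ± 0.283). The ranges of Phlda3 and Cdkn1a overlapped, as did those of Bax and Trp53inp1, and the other neighbours in this order were apart. In WT TRAP, Phlda3 was at 1363 ± 44.3 TPM (SD, n = 6), above Cdkn1a (425 ± 156) and Ccng1 (268 ± 31.4), whose ranges overlapped. Their order turned between the sets, with Cdkn1a at 226 TPM and Ccng1 at 231 and 235 TPM in replicates 1 and 2, and Cdkn1a at 493 to 549.9 TPM and Ccng1 at 267 to 313 TPM in replicates 3 to 6. Mdm2 (53.4 ± 9.05 TPM), Bax (46.4 ± 7.33) and Zmat3 (35.4 ± 5.12) followed, with overlap between each and the next. Trp53inp1 (21.4 ± 2.504 TPM) was apart from its neighbours, and Ptchd4 (14.2 ± 2.75), Gtse1 (10.1 ± 0.909) and Eda2r (8.94 ± 1.19) again overlapped one after the other. The 2 experiments differ in depot, culture and isolation, and levels were not compared between them.

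**Figure D4:**
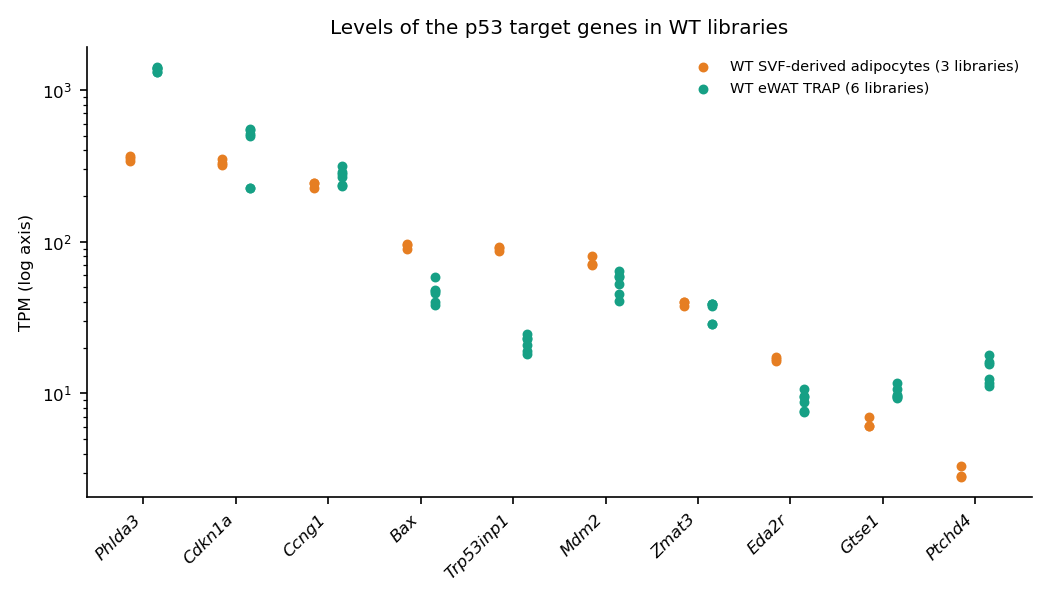
TPM (log axis) of the p53 target genes in WT SVF-derived adipocytes (3 libraries) and WT eWAT TRAP (6 libraries); each point is a library. Phlda3 leads in both, at 353 TPM and 1363 TPM on average, and Ptchd4 is last in the cultured cells at 3.00 TPM.

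Cdkn1a is transcribed from 2 annotated starts that lie 2790 bases apart, and only the upstream window held half-sites. In the FI3OE libraries the transcript of the upstream start (Cdkn1a-202) was at 342 ± 10.2 TPM and that of the downstream start (Cdkn1a-201) at 396 ± 4.42 TPM, against 132 ± 15.4 and 176 ± 7.30 TPM in WT (SD, n = 3 each). The upstream transcript made up 43.7 ± 1.04% of the gene in FI3OE and 39.4 ± 3.19% in WT, and the ranges of 42.6 to 44.6% and 35.7 to 41.4% did not overlap. The share of the downstream transcript did overlap, at 49.9 to 51.2% in FI3OE and 50.7 to 55.7% in WT. A further transcript, Cdkn1a-203, made up 3.46 ± 0.522% in FI3OE and 5.12 ± 0.993% in WT. In TRAP the share of the upstream transcript was 58.5 ± 5.58% in FI3KO and 54.5 ± 3.01% in WT, with overlap. In TRAP the upstream transcript was at 86.4 ± 29.0 TPM in FI3KO and 235 ± 94.1 TPM in WT, and the downstream one at 57.8 ± 10.8 and 188 ± 61.6 TPM (SD, n = 6 each). Both transcripts were higher in every FI3OE library than in WT. In TRAP the groups were apart for the downstream transcript and overlapped for the upstream one, at 50.9 to 127.5 TPM in FI3KO and 115 to 316 TPM in WT. These are Salmon's estimates of how reads divide between overlapping transcripts, so the shares carry more uncertainty than the gene totals.

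Other p53 targets were tested to see how far the pattern held beyond the 10 genes. They were 40 genes listed from general knowledge with earlier results of these data known. In FI3OE 25 of the 37 tested rose, 3 fell and 9 were not called, with a median log2 fold change of 0.49, while 20.2% of all genes tested were higher and 16.8% lower. In the fit of all 18 libraries 15 rose and 1 fell. Past the fold-change cutoff, 7 rose. In FI3KO 14 of the 31 tested fell, 2 rose and 15 were not called, with a median of -0.27, while 18.3% of all genes were lower and 19.1% higher, and 1 fell past the fold-change cutoff. In replicates 1 and 2 alone 1 of 33 fell, with a median of -0.11, and in replicates 3 to 6 alone 17 of 31 fell and 4 rose. Of the 31 genes tested in both experiments, 11 rose in FI3OE and fell in FI3KO, which is 11 of the 21 that rose and 11 of the 14 that fell. Over the 13093 genes tested in both, 6.28% were called in these directions. The FI3KO effect differed between replicates 1 and 2 and replicates 3 to 6 for 10 of the 31 genes (interaction term, edgeR), 6 with a more negative and 4 with a more positive value in replicates 3 to 6, while 26.5% of all genes were called. In replicates 1 and 2 alone, every call in TRAP given for a gene named below was lost, and the log2 fold changes of that set are given beside them. The fit of all 18 libraries, which share one estimate of spread, lost the FI3OE calls of Eda, Pmaip1, Plk3, Gadd45a, Rrm2b, Gdf15, Ccne2, Cdkn1b, Cenpf, Cdc20, Bcl2a1b and Phlda1. The offset for transcript length lost those of Ercc5, Rrm2b, Ccne2, Cenpf, Cdc20 and Bcl2a1b in FI3OE and of Trp53, Mdm4, Eda, Bcl2l1 and Bak1 in FI3KO.

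Of the targets that act in cell death all 9 tested rose in FI3OE, and 5 of them did so in the fit of all 18 libraries. Pidd1, the core of a caspase-2 activating platform, rose from 4.76 ± 0.774 to 10.4 ± 0.999 CPM (SD, n = 3 each; log2 fold change 1.15, adjusted p = 3.49e-05 in edgeR). Pmaip1, which encodes the BH3-only protein NOXA, rose from 3.11 ± 0.462 to 6.77 ± 0.631 CPM (log2 fold change 1.14, adjusted p = 5.68e-05 in edgeR). In FI3KO 5 of the 7 tested fell. The death receptor gene Tnfrsf10b fell from 23.05 ± 4.23 to 12.96 ± 2.59 CPM (SD, n = 6 each; log2 fold change -0.78, adjusted p = 0.00186 in edgeR), and Fas from 40.9 ± 2.60 to 26.2 ± 2.34 CPM (log2 fold change -0.59, adjusted p = 0.000102 in edgeR). For both, every FI3KO library was below every WT library. In replicates 1 and 2 the log2 fold change was -0.11 for Tnfrsf10b and -0.46 for Fas.

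Cell cycle arrest and feedback targets were mixed. In FI3OE 3 of 7 rose, among them the antiproliferative gene Btg2 (55.1 ± 1.86 to 78.9 ± 0.302 CPM, log2 fold change 0.54, adjusted p = 1e-06 in edgeR) and the kinase gene Plk3 (log2 fold change 0.49, adjusted p = 0.0059). Gadd45a, which encodes a growth arrest protein and is a textbook p53 target, fell from 12.8 ± 0.228 to 8.89 ± 0.376 CPM (log2 fold change -0.50, adjusted p = 0.000473), with no overlap of the groups. In FI3KO 2 of 6 fell, Btg2 (log2 fold change -0.36, adjusted p = 0.0301) and Trp53cor1, the long noncoding RNA known as lincRNA-p21 (8.64 ± 1.24 to 4.76 ± 0.896 CPM, SD, n = 6 each; log2 fold change -0.81, adjusted p = 0.000637 in edgeR). Trp53cor1 lies upstream of Cdkn1a on chromosome 17. The Btg2 groups overlapped in TRAP, its call was lost under 8 and reversed under 1 of 23 alternatives, and its value turned to 0.08 in replicates 1 and 2, in which that of Trp53cor1 was -0.62.

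Targets in DNA repair and nucleotide supply did not move one way. The translesion polymerase gene Polk rose in FI3OE (29.6 ± 1.20 to 51.5 ± 3.46 CPM, SD, n = 3 each; log2 fold change 0.81, adjusted p = 5.1e-07 in edgeR) and fell in FI3KO (21.1 ± 2.49 to 12.6 ± 1.15 CPM, SD, n = 6 each; log2 fold change -0.70, adjusted p = 0.000134 in edgeR). Ercc5, an endonuclease gene of nucleotide excision repair, rose in FI3OE (log2 fold change 0.46, adjusted p = 3.21e-05), and the polymerase gene Polh fell in FI3KO (log2 fold change -0.24, adjusted p = 0.00814). The damage sensor gene Xpc rose in that group (34.9 ± 6.13 to 50.1 ± 4.42 CPM, log2 fold change 0.57, adjusted p = 0.00269). Rrm2b, a ribonucleotide reductase subunit, fell in FI3OE (log2 fold change -0.17, adjusted p = 0.0305) and rose in FI3KO (log2 fold change 0.36, adjusted p = 0.0304), but the first call was lost under 9 of 14 alternatives and the second lost or reversed under 11 of 23. In TRAP replicates 1 and 2 the log2 fold changes were -0.52 for Polk, -0.19 for Polh, 0.26 for Xpc and -0.18 for Rrm2b.

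Among targets in metabolism and redox control 4 of 8 rose and 1 fell in FI3OE, and 3 of 7 fell in FI3KO. Ak1, an adenylate kinase, rose from 47.7 ± 2.16 to 103 ± 2.75 CPM in FI3OE (SD, n = 3 each; log2 fold change 1.13, adjusted p = 8.14e-09 in edgeR) and fell from 45.6 ± 6.41 to 21.5 ± 8.21 CPM in FI3KO (SD, n = 6 each; log2 fold change -1.03, adjusted p = 0.0029 in edgeR). Dglucy, a D-glutamate cyclase gene, rose by a log2 fold change of 0.62 (adjusted p = 6.17e-06) and fell in FI3KO (log2 fold change -0.52, adjusted p = 0.000134). Sesn1, which restrains mTORC1, fell in FI3OE (log2 fold change -0.29, adjusted p = 0.00074). In TRAP replicates 1 and 2 the values of Ak1 and Dglucy were -0.28 and -0.39 on the log2 scale.

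Of the remaining targets all 7 tested rose in FI3OE and 2 of 5 fell in FI3KO. The largest rise of all listed targets was that of Cd80, a costimulatory molecule of antigen-presenting cells, from 6.91 ± 0.885 to 25.4 ± 0.844 CPM (SD, n = 3 each; log2 fold change 1.89, adjusted p = 2.55e-08 in edgeR). Gdf15, a stress-induced cytokine gene, rose from 5.77 ± 0.553 to 12.3 ± 0.400 CPM (log2 fold change 1.10, adjusted p = 4.92e-06 in edgeR). In FI3KO the zinc finger gene Zfp365 (log2 fold change -0.64, adjusted p = 0.00223) and the thiamine transporter gene Slc19a2 (log2 fold change -0.47, adjusted p = 0.000408) fell, and both were below WT in all 6 libraries, with log2 fold changes of -0.60 and -0.42 in replicates 1 and 2.

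**Figure D5:**
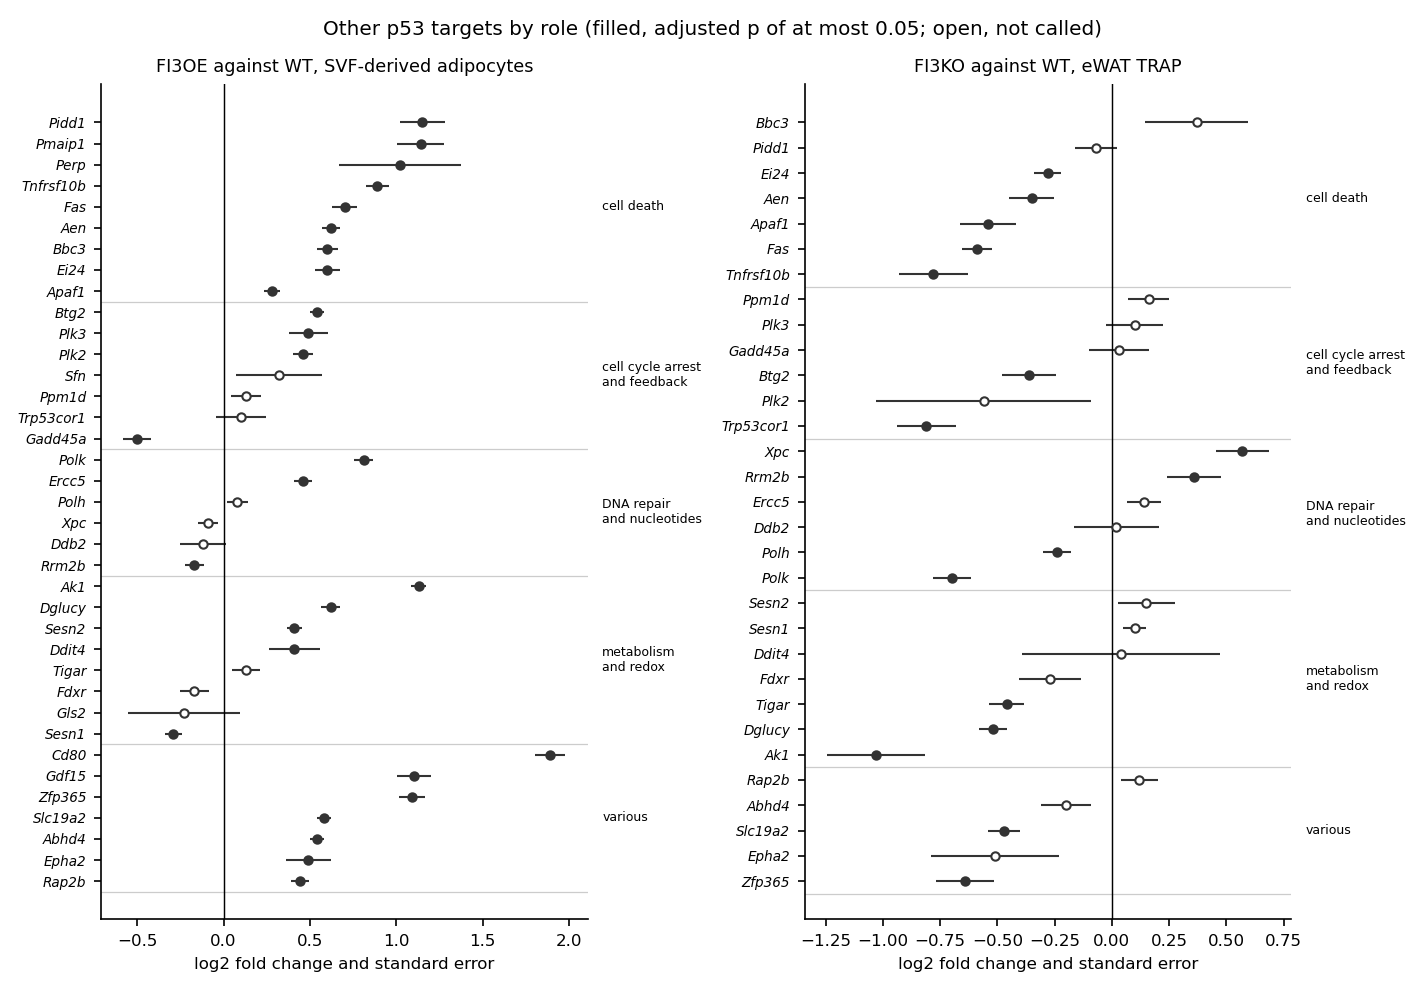
Log2 fold change with standard error of the other p53 targets tested, by role, in FI3OE against WT (37 genes, left) and FI3KO against WT (31 genes, right); filled points have an adjusted p of at most 0.05 and open points were not called. Points lie mostly right of 0 in FI3OE and mostly left of 0 in FI3KO, with Gadd45a at -0.50 on the left and Xpc at 0.57 on the right among the exceptions.

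Trp53, the gene of p53 itself, was not called in FI3OE, at 27.6 ± 0.245 CPM against 25.75 ± 0.913 CPM (SD, n = 3 per group, log2 fold change 0.12, adjusted p = 0.0813 in edgeR). In TRAP it fell from 12.4 ± 1.70 to 10.0 ± 0.865 CPM (SD, n = 6 each; log2 fold change -0.26, adjusted p = 0.0377 in edgeR), with overlapping groups and a call lost under 11 of 23 alternatives. Protein levels and modification of p53 were not measured in these files. Of 15 genes tested for p53 and its regulators, 2 rose and 2 fell in FI3OE, which is no larger a share than the 20.2% and 16.8% of all genes. Atm, the kinase that signals DNA double-strand breaks to p53, rose from 75.8 ± 1.93 to 139.9 ± 2.12 CPM (log2 fold change 0.90, adjusted p = 1.15e-08 in edgeR), and the ligase gene Rchy1 by a log2 fold change of 0.49 (adjusted p = 6.65e-05). Usp7, a deubiquitinase that stabilizes MDM2 and p53 (log2 fold change -0.27, adjusted p = 8.35e-05), and the ligase gene Cop1 (log2 fold change -0.32, adjusted p = 0.000332) fell. Mdm4, which encodes the partner of MDM2, was not called in FI3OE (log2 fold change 0.07, adjusted p = 0.153) and rose in FI3KO (24.2 ± 2.28 to 30.4 ± 3.28 CPM, log2 fold change 0.37, adjusted p = 0.00648). In FI3KO, where 19.1% of all genes were higher and 18.3% lower, 4 of the 15 rose, Trp53bp1, a double-strand break repair factor, among them (log2 fold change 0.36, adjusted p = 0.0199), and 1 fell. In replicates 1 and 2 the log2 fold changes were -0.06 for Trp53, 0.44 for Mdm4 and 0.18 for Trp53bp1. Cdkn2a, whose alternative reading frame encodes the MDM2 inhibitor ARF, was not called in either comparison (log2 fold change 0.02, adjusted p = 0.897, and log2 fold change -0.18, adjusted p = 0.699). It was at 8.86 CPM in both SVF groups and below 1.35 CPM in every TRAP library. The TRAP sets, each fitted alone, had opposite signs for Cdkn2a. Replicates 3 to 6 gave -0.91 on the log2 scale, against 1.02 from replicates 1 and 2. A call of Cdkn2a in TRAP appeared under 1 of 23 alternatives, and its adjusted p ranged from 0.0126 to 0.92 over the alternative settings.

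The cell cycle genes on which p21 acts were examined next to Cdkn1a. Of 17 p21 relatives, cyclins, cyclin-dependent kinases and RB family genes, 6 rose and 5 fell in FI3OE, against 20.2% and 16.8% of all genes, and 3 rose in the fit of all 18 libraries, in which the other 14 were not called. The cyclin E gene Ccne1 rose from 20.6 ± 0.700 to 58.2 ± 5.16 CPM (SD, n = 3 each; log2 fold change 1.52, adjusted p = 1.99e-08 in edgeR) and the cyclin D gene Ccnd2 by a log2 fold change of 0.66 (adjusted p = 1.51e-07). Cdkn1b, which encodes the p21 relative p27, fell (log2 fold change -0.36, adjusted p = 5.06e-05), as did Ccne2 (log2 fold change -0.45, adjusted p = 0.0139), whose call was lost under 4 of 14 alternatives. In FI3KO 4 rose and 4 fell, against 19.1% and 18.3% of all genes. There Cdkn1b rose (9.41 ± 1.00 to 15.2 ± 3.88 CPM, SD, n = 6 each; log2 fold change 0.73, adjusted p = 0.00296 in edgeR) with overlapping groups, Cdkn2d rose (log2 fold change 0.52, adjusted p = 0.00333) and Ccne1 fell (log2 fold change -0.67, adjusted p = 0.00331). Cdkn2b, which encodes the inhibitor p15, fell with overlapping groups (log2 fold change -0.49, adjusted p = 0.0423), a call lost under 8 and reversed under 1 of 23 alternatives. Replicates 1 and 2 gave log2 fold changes of 0.05 for Cdkn1b, 0.52 for Cdkn2d, -0.33 for Ccne1 and 0.27 for Cdkn2b.

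Proliferation genes that are known to be repressed through p21 were examined as well. Of 24 tested in FI3OE, 14 rose and 10 were not called, against 20.2% of all genes higher and 16.8% lower. Their median log2 fold change was 0.41, although 1 of the 24 rose in the fit of all 18 libraries. Levels were low, and the kinetochore gene Cenpf, for example, rose from 2.21 ± 0.451 to 3.71 ± 0.630 CPM (log2 fold change 0.75, adjusted p = 0.0106 in edgeR). Cdc20, an activator of the anaphase-promoting complex, rose by a log2 fold change of 0.71 (adjusted p = 0.0316) with overlapping groups, a call lost under 6 of 14 alternatives. In FI3KO 8 of 19 fell and 11 were not called, with a median of -0.93, while 18.3% of all genes were lower and 19.1% higher. The median over 19 genes was 0.10 in replicates 1 and 2 alone and -1.32 in replicates 3 to 6 alone. In the latter 13 fell, as did 24.8% of all genes. The kinesin gene Cenpe fell from 3.29 ± 1.26 to 1.51 ± 0.147 CPM (log2 fold change -1.07, adjusted p = 0.00424 in edgeR) with overlapping groups. Its value was -0.31 in replicates 1 and 2, and -1.85 with the offset for transcript length.

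Relatives of Bax were examined for the same reason. Of 11 BCL2 family genes tested in FI3OE, 6 rose and 2 fell, against 20.2% and 16.8% of all genes. In the fit of all 18 libraries 2 of 12 rose and 2 fell. Bak1, the other pore-forming member, rose from 33.3 ± 0.630 to 50.4 ± 3.30 CPM (SD, n = 3 each; log2 fold change 0.62, adjusted p = 5.54e-06 in edgeR), whereas the proapoptotic genes Bok (log2 fold change -0.73, adjusted p = 1.07e-05) and Bmf (log2 fold change -0.68, adjusted p = 9.44e-05) fell. Bcl2a1b rose from 1.92 ± 0.799 to 3.20 ± 0.204 CPM (log2 fold change 0.76, adjusted p = 0.0421), but belongs to a family of near-identical copies between which reads may be divided, and its call was lost under 7 of 14 alternatives. In FI3KO 2 of 10 rose, close to the 19.1% of all genes that did. They were the survival genes Bcl2l1 (log2 fold change 0.31, adjusted p = 0.0272) and Bcl2 (log2 fold change 0.26, adjusted p = 0.00866), and Bak1 fell (log2 fold change -0.27, adjusted p = 0.0261), all 3 with overlapping groups. The calls of Bcl2l1 and Bak1 were lost under 9 and 6 of 23 alternatives. Their log2 fold changes in replicates 1 and 2 were 0.11, 0.14 and -0.47. Phlda1, a relative of Phlda3, rose in FI3OE from 3.26 ± 0.860 to 5.96 ± 0.388 CPM (log2 fold change 0.87, adjusted p = 0.00184 in edgeR).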

How the data were processed

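RNA of 6 SVF-derived adipocyte libraries and 12 TRAP libraries was depleted of rRNA, made into Nextera XT libraries without strand information (12 PCR cycles) and sequenced. The authors demultiplexed the reads with bcl2fastq, filtered them with fastp and quantified transcripts with Salmon 1.4.0 on GENCODE M24 (GRCm38). The deposited values are estimated counts per transcript, neither normalized nor whole, and TPM, which the authors' Salmon runs scaled by length to the same total in each library. Estimated counts and TPM were added up within each gene by an M21 map (117850 of 118733 transcripts matched), and counts were rounded. Unmatched transcripts held 0.375 to 1.08% of reads and each was kept as a separate gene.

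Groups came from the labels. Each experiment was fitted apart in R 4.3.3 with edgeR 4.0.16 (filterByExpr, TMM, quasi-likelihood test without covariates, Benjamini-Hochberg over all genes tested). A call required an adjusted p of at most 0.05, and separately also a log2 change of 1 or more in size, which are the cutoffs of the study. Standard errors were derived from the test, as the size of the log2 fold change divided by the square root of its F statistic. The fit was tested on simulated data. Alternatives were DESeq2 1.42.0, its size factors, 2 other count filters, a length offset, a joint fit of the 18 libraries, and mitochondrial and rRNA genes removed. Others were a replicate block, the set of TRAP replicates as a term, each library left out, and subsets of TRAP replicates.

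The members and gene lists were chosen with earlier results of these data known. From each pathway list the text names up to 2 genes with the largest rise and 2 with the largest fall among those called whose mean log2 CPM was 1 or more, besides all members, Irf3, Trp53, Mdm4, Cdkn2a and Eda. Replicates are samples that the labels number, and p-values measure the spread between them, which may be partly technical. Figures were drawn in Python with matplotlib.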

Additional observations from a re-analysis of the deposited data

Results flagged for a closer look

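The levels of the 10 p53 target genes and of Irf3, Trp53, Mdm4, Cdkn2a and Eda were examined for single TRAP libraries that stood far from the others of their group of 6. Among 30 such groups of values 1 library stood out, while chance gives about 1 in 20. Mdm2 was at 48.24 CPM in FI3KO replicate 4, above the 40.9 to 43.5 CPM of the other FI3KO libraries and just below the lowest WT library. Leaving out each library in turn moved the log2 fold change of Mdm2 only between -0.48 and -0.39.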

How the results depend on the processing

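The 9 higher calls in FI3OE and the 8 lower calls in FI3KO were kept in number in every alternative except those named here. With the fold-change cutoff added, the p53 target genes called were 4 and 4, the other p53 targets 7 higher and 0 lower in FI3OE and 0 higher and 1 lower in FI3KO, and all genes 321 higher and 262 lower (from 3249 and 2711) and 237 higher and 664 lower (from 2605 and 2490). Past this cutoff, the fit of all 18 libraries gave 4 other p53 targets higher in FI3OE and 4 lower in FI3KO. TRAP replicates 3 to 6 alone gave 3 lower past it, and replicates 1 and 2 alone gave 0. Without this cutoff, the fit of all 18 libraries gave 955 higher and 617 lower over all genes in FI3OE, with 15 and 1 of the other p53 targets. The length offset gave 1594 lower in FI3OE. In TRAP replicates 1 and 2 alone, 3 p53 target genes were lower, the other p53 targets were 0 higher and 1 lower, and all genes 222 higher and 278 lower. Replicates 3 to 6 alone gave 4 other p53 targets higher. That count of 2 was 1 without the count filter, and between 1 and 2 when single libraries were left out (1 without any one of replicates 3 to 6 of either group). The cause of these changes was not tested. In replicates 1 and 2 alone the sign turned for Cdkn2a (1.02), Btg2 (0.08), Rrm2b (-0.18) and Cdkn2b (0.27). The value of Cdkn2a in FI3OE was 0.00 with the length offset, and between -0.03 and 0.10 when single libraries were left out.

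Same-numbered samples did not deviate together (correlations from -0.389 to 0.095), so the numbers do not pair the samples. With the replicate block the other p53 targets called higher in FI3KO were 1, and the calls of Trp53, Btg2, Rrm2b, Cdkn2b and Bcl2l1 in FI3KO and of Rrm2b in FI3OE were lost. The block changed no other call of a named gene.

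The lowest read numbers among the 10 genes were those of Ptchd4 in the SVF libraries and of Gtse1 in TRAP. The SVF experiment has 3 libraries a group and no record of separate cultures, so its errors are those between libraries. A gene total cannot show which cells gave the reads.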
